A study of Mus musculus with 6 samples.

Results

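*Eps8l1* and its paralogs *Eps8*, *Eps8l2* and *Eps8l3* are the 4 genes of the EPS8 family, and they were taken by symbol from the 25166 genes of an RNA-seq table of muscle stem cells (MuSCs). *Eps8l1* was selected on measured values, because it had the strongest fall of all tested genes in Sirt6mKO, so its own difference between the groups is a description without a test. The 3 paralogs were added because they belong to the same family, whatever their values. MuSCs are the PAX7-positive stem cells of skeletal muscle. They were sorted by FACS from C57BL/6 mice without culture, 100 to 200 cells per sample according to the labels, in 3 libraries labelled Sirt6mKO and 3 control libraries. Sirt6mKO mice carry floxed *Sirt6* alleles (Sirt6 fl/fl) and the Cre allele Pax7ICN, so that Cre expressed from the Pax7 promoter removes exons 4 to 6 of the histone deacetylase gene *Sirt6*. A legend of the study describes controls as Sirt6 fl/fl mice without Pax7ICN and gives an age of 12 weeks, whereas the labels call the controls wild type and give no age. By either description the controls lack Pax7ICN, so the Cre allele and the loss of *Sirt6* cannot be told apart. A ROSA26-YFP allele was also crossed into the Sirt6mKO strain. The methods name several gates (Integrin-a7+/CD34+, GFP+ or YFP+, after removal of Sca1+, CD45+ and CD31+ cells) without saying which was used for which group, so a difference in gate and the genotype cannot be told apart. The methods call the study's replicates biological but state fewer than 3 of them for RNA-seq, whereas a legend gives n = 3 for this comparison. The labels do not name the animals, so whether the 3 libraries of a group come from 3 animals is not settled.

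EPS8 proteins are adaptors of the actin cytoskeleton. EPS8 was found as a substrate of the EGF receptor. With ABI1 and SOS1 it forms a complex that activates the GTPase Rac, and its C-terminal region caps the barbed ends of actin filaments, where filaments grow, and bundles them with IRSp53 (encoded by *Baiap2*). EPS8 and EPS8L2 lie at the tips of the stereocilia of hair cells and EPS8 also at the tips of intestinal microvilli, whereas little is known of the family in MuSCs. The members share an SH3 domain, a fold that binds short peptides of partner proteins such as ABI1.

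The 4 genes can be told apart by their sequence, which bears on whether the signal of *Eps8l1* could be taken from a paralog. The following 90-base stretches are the most conserved ungapped window of an alignment of the longest coding sequence of each gene (GENCODE transcripts of GRCm38). They encode the core of the SH3 domain. Capitals mark the 40 positions that are identical in all 4 genes.
Eps8: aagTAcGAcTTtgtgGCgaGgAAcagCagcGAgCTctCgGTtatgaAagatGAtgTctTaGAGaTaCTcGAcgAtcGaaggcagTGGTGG
Eps8l1: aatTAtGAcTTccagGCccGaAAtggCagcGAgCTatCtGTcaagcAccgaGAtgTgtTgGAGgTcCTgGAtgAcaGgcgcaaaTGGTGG
Eps8l2: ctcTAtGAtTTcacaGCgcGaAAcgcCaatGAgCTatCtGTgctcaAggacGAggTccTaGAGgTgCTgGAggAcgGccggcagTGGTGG
Eps8l3: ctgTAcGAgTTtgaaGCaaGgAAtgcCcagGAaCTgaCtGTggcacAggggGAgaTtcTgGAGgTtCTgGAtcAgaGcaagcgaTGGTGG
The stretches begin at base 1612 of the coding sequence in *Eps8*, 1636 in *Eps8l1*, 1507 in *Eps8l2* and 1393 in *Eps8l3*. Even here *Eps8l1* shared only 58 of 90 bases with *Eps8*, 58 with *Eps8l2* and 52 with *Eps8l3*. Over the whole aligned coding sequence, *Eps8l1* was identical at 54.9% of positions to *Eps8l2*, at 53.1% to *Eps8* and at 45.1% to *Eps8l3*. No stretch of 25 bases was shared by the transcripts of any pair of members, and reads were 75 bases long, so an exact read of 1 member has no full match in another.

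*Eps8l1* lies on the plus strand of chromosome 7 of GRCm38, from 4460674 to 4480487, with 22 exon blocks and 6036 exonic bases over 14 annotated transcripts, 7 of them coding. Its RefSeq promoter windows lie in a pair of regions about 4 kb apart. RefSeq (GRCm38.p6) has 3 promoter windows of 300 bases for the gene, 1 at the first region and 2 overlapping ones at the second, of which the upstream one is printed. They are shown because *Eps8l1* has the largest difference among the tested genes that were lower. Capitals mark E-boxes (CANNTG, a palindrome, so both strands are covered).
Eps8l1 first start: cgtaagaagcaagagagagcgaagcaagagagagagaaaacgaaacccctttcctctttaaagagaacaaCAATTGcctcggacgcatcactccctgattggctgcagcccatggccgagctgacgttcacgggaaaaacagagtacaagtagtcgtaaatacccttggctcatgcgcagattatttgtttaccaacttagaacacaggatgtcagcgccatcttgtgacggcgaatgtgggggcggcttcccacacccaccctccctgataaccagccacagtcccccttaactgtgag
Eps8l1 second start: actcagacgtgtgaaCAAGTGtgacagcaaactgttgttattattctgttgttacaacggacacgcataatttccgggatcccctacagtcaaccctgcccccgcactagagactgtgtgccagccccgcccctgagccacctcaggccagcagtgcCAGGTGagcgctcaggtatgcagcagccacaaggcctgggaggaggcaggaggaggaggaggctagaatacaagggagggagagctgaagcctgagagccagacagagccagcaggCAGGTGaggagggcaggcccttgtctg
The first window, chr7:4460447-4460746, held 1 E-box, 14 CpG dinucleotides and 51.3% G and C. It also held 1 CCAAT box, on the reverse strand. The second window, chr7:4464485-4464784, held 3 E-boxes, 7 CpG and 58.7% G and C. The third, chr7:4464599-4464898, is not printed and held 2 E-boxes, 3 CpG and 62.3% G and C. None held TATAAA on either strand. Of 32851 RefSeq promoter windows of this length in the mouse, 72.3% held CANNTG, 37.4% CCAAT and 13.6% TATAAA, with a median of 7 CpG and 52.7% G and C, so these letters are common. The table gives 1 value per gene and cannot say which start is in use.

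The values, called signal here, carry no unit and appear to be reads per gene that were divided by 1 factor per library and rounded. All read numbers, floors and counting intervals given here rest on that inference. The factors were estimated from the values, which gave 1266718 to 3208460 reads on genes in a library, and a single read was worth 0.729 to 1.794 units of signal. Low values are least precise in control replicate 3, the shallowest library. The 14227 genes whose mean signal reached 5 were compared with limma-trend on log2(signal + 1). A gene was called when its adjusted p (Benjamini-Hochberg) did not exceed 0.05 and it differed at least 2-fold. The targeted gene, *Sirt6*, stood at 19, 20 and 13 in the Sirt6mKO libraries and at 18, 17 and 20 in control libraries (log2 fold change -0.10, standard error 0.29, limma adjusted p = 0.91). The table has no value for exons 4 to 6 alone, so this gene does not check the labels, and Sirt6mKO means labelled Sirt6mKO throughout. The study itself reports efficient deletion of *Sirt6* in MuSCs by PCR genotyping and shows a western blot of SIRT6 in cultured MuSCs. Neither is a value of these libraries. *Pax7*, the gene that drives Cre and marks MuSCs, had 1841, 2307 and 1810 in the Sirt6mKO libraries and 4066, 3449 and 3150 in the controls. The difference of -0.84 on the log2 scale (standard error 0.13, limma adjusted p = 0.0041) is short of 2-fold. The part of the Cre allele, carried by Sirt6mKO only, in the *Pax7* difference was not tested.

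*Eps8l1* (ENSMUSG00000006154) had a signal of 103, 71 and 70 in control replicates 1, 2 and 3, and of 4, 2 and 6 in Sirt6mKO replicates 1, 2 and 3. All 3 control libraries lay far above all 3 Sirt6mKO libraries, with the highest Sirt6mKO value at 6 and the lowest control value at 70. The means were 81.3 ± 18.8 (SD, n = 3) in the controls and 4.0 ± 2.0 (SD, n = 3) in Sirt6mKO, a ratio of 20.3. On the log2(signal + 1) scale the difference was -4.10 (standard error 0.35), with a spread within the groups of 0.49 (pooled SD). In reads, the controls held 84, 97 and 39, and the Sirt6mKO libraries 5, 3 and 6. The exact Poisson 95% interval of the lowest control library was 27.7 to 53.3 reads, and that of the highest Sirt6mKO library 2.2 to 13.1 reads. Intervals and floors of this kind cover counting error only. The read number of Sirt6mKO replicate 2 is at the limit of 3 reads that a count of 0 allows. *Eps8l1* reads were few in every Sirt6mKO library, and in replicate 2 they did not exceed this limit. In bulk RNA, fewer cells that express a gene and less RNA per cell cannot be told apart.

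The paralogs were at or near the limit of detection in both groups. *Eps8*, the founding member, had a signal of 0, 4 and 5 in Sirt6mKO against 0, 1 and 0 in the controls. The groups overlapped, and 4 of 6 libraries were at or under 3 reads (exact two-sided permutation p = 0.40). *Eps8l2*, whose product is needed to maintain the stereocilia of hair cells, had 2, 1 and 0 in Sirt6mKO against 0, 1 and 0 in the controls. Every library was at or under 3 reads, and the groups overlapped (exact permutation p = 0.70). *Eps8l3*, the least conserved member, had 2, 1 and 2 in Sirt6mKO against 6, 2 and 0 in the controls, where 5 of 6 libraries were at or under 3 reads and the groups overlapped (exact permutation p = 1.0). With 3 libraries against 3, such a test cannot go below 0.1. A difference in the paralogs was not detectable at this depth, since only 11, 4 and 13 reads in all lay behind *Eps8*, *Eps8l2* and *Eps8l3*, against 234 for *Eps8l1*.

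**Figure D1:**
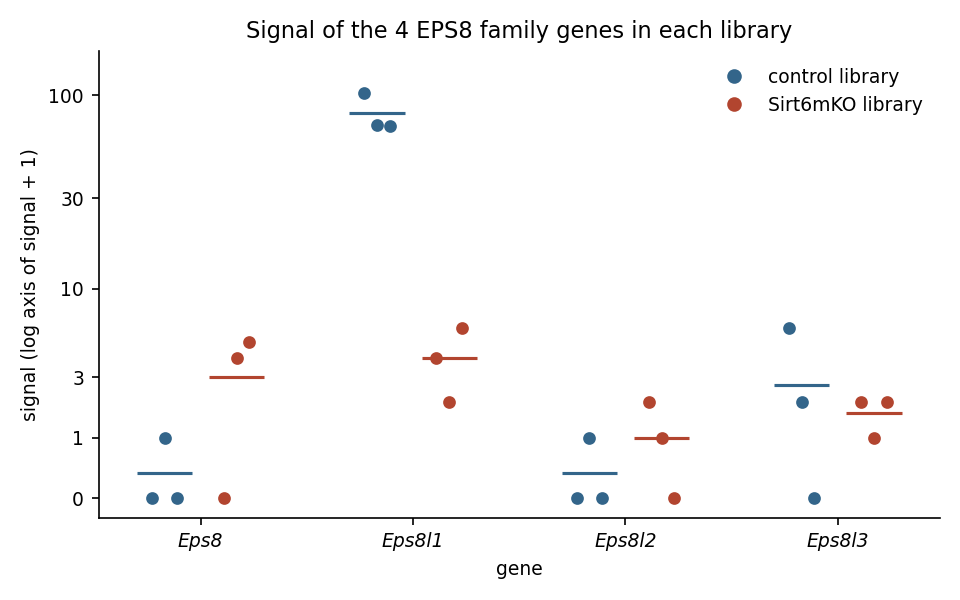
Signal of *Eps8*, *Eps8l1*, *Eps8l2* and *Eps8l3* in each library, on a log axis of signal + 1, with 3 control libraries (blue) and 3 Sirt6mKO libraries (red) per gene and a bar at each group's mean. The control values of *Eps8l1* sit between 70 and 103 and its Sirt6mKO values between 2 and 6, whereas no paralog exceeds 6 in any library.

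Only *Eps8l1* of the 4 members passed the filter on low values, so a count over the family says nothing more than this gene does. It was called lower, beside 1.02% of tested genes called lower and 1.57% called higher, and its groups did not overlap, beside 10.1% of tested genes with every Sirt6mKO library below every control and 11.1% with every one above. The gene was picked on this contrast, so nothing is read from these shares. With the filter removed, limma gave a log2 fold change of 1.30 for *Eps8* (adjusted p = 0.47), 0.53 for *Eps8l2* (adjusted p = 0.72) and -0.07 for *Eps8l3* (adjusted p = 0.99), and none of these was called or had an unadjusted p under 0.05. The log2(signal + 1) scale understates changes at such low values.

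Per kb of exonic length, a scale on which genes can be compared, the mean signal of *Eps8l1* in the controls was 13.5, above 68.6% of the 25098 genes with an annotated length. In Sirt6mKO it was 0.66, above 19.8% of genes. The control levels of the others per kb were 1.17 for *Eps8l3*, 0.06 for *Eps8l2* and 0.03 for *Eps8*. The control libraries of *Eps8l1*, at 11.6 to 17.1 per kb, lay above those of every paralog, and the ranges of the 3 paralogs overlapped. In Sirt6mKO the levels per kb were 0.73 for *Eps8l3*, 0.66 for *Eps8l1*, 0.24 for *Eps8* and 0.19 for *Eps8l2*, and the ranges over the 3 libraries overlapped between neighbours in that order (0.44 to 0.88 for *Eps8l3*, 0.33 to 0.99 for *Eps8l1*, 0.0 to 0.40 for *Eps8* and 0.0 to 0.37 for *Eps8l2*).

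Genes that overlap the members bear on their values, because the use of strand in the authors' counting is not stated. Without strand, reads in bases shared by 2 genes belong to both and would have been dropped. *Gm15494*, an antisense gene, shares 59 exonic bases with *Eps8l1*, 1.0% of its exonic length, and had a signal of 0, 1 and 4 in Sirt6mKO against 5, 2 and 5 in the controls. The antisense overlaps of the paralogs are larger. *B230206H07Rik* covers 32.2% of the exonic length of *Eps8l2* and had a signal of 1 in control replicate 2 and 0 elsewhere. *4933431E20Rik* covers 42.4% of that of *Eps8l3* and had 56, 45 and 33 in Sirt6mKO against 81, 61 and 50 in the controls (log2 fold change -0.51, standard error 0.24, limma adjusted p = 0.28), so the low values of *Eps8l3* are uncertain. *Eps8* lies on the minus strand of chromosome 6, from 137477245 to 137654876, and no gene of the table overlaps it. *Eps8l2* lies on chromosome 7 from 141338880 to 141363020 and *Eps8l3* on chromosome 3 from 107877229 to 107892900, both on the plus strand.

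Genes beside *Eps8l1* were examined to see whether the difference extended along the chromosome. The annotation has 15 other genes within 100 kb, of which 10 are in the table and 3 passed the filter. None of the 3 was called by limma-trend, beside 1.02% of all tested genes called lower and 1.57% called higher. Of the 3, 1, *Tnnt1*, had an unadjusted p under 0.05, beside 18.1% of all tested genes. At such shares the lack of a call among 3 genes says little about the stretch as a whole. *Ppp1r12c*, which encodes a regulatory subunit of protein phosphatase 1, lies 1.0 kb after the end of *Eps8l1*. It had 290, 253 and 240 in Sirt6mKO against 273, 255 and 251 in the controls. Its groups overlapped, and the log2 fold change was 0.00 (standard error 0.12, limma adjusted p = 0.99). *Rdh13*, a retinol dehydrogenase gene 15 kb before the start, had 86, 77 and 90 in Sirt6mKO against 89, 72 and 79 in the controls (log2 fold change 0.08, standard error 0.16, limma adjusted p = 0.86). *Tnnt1*, which encodes slow skeletal troponin T, lies 24.1 kb after the end. Its values were 66, 56 and 70 in Sirt6mKO against 54, 43 and 39 in the controls, so every Sirt6mKO library was higher, but the difference did not pass the test (log2 fold change 0.50, standard error 0.20, limma adjusted p = 0.20).

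The other neighbours were too low to test. *Gp6*, the collagen receptor of platelets, had 7, 3 and 5 in Sirt6mKO against 0, 1 and 0 in the controls, the reverse order to *Eps8l1*. *Ptprh*, a receptor-type tyrosine phosphatase gene, had 7, 4 and 8 in Sirt6mKO against 6, 1 and 2 in the controls, and its groups overlapped. *Tnni3*, which encodes cardiac troponin I, *Dnaaf3*, an axonemal dynein assembly gene, the pseudogene *Atp6v0c-ps1* and the miRNA gene *Gm23577* stayed at a signal of 3 or less in every library.

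**Figure D2:**
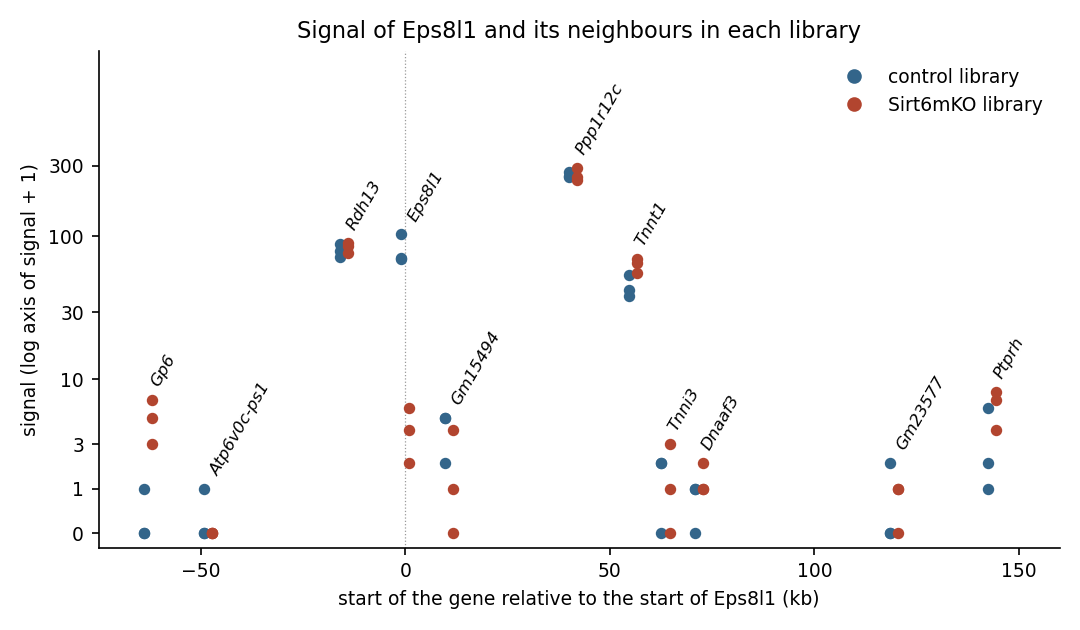
Signal in each library (log axis of signal + 1) of *Eps8l1* and of the 10 neighbours in the table, placed by the distance of their start from that of *Eps8l1* in kb, controls in blue and Sirt6mKO in red. At *Eps8l1* the groups are far apart, 103 to 70 against 6 to 2, while the blue and red points of *Rdh13* and *Ppp1r12c* cover the same range.

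Genes around the EPS8 proteins were read from 7 lists with 72 genes in all, of which 66 were in the table and 50 were tested. The lists were drawn up with earlier results of these data known. By limma-trend 1 of the 50 was called lower and 1 higher, 2.0% each, beside 1.02% and 1.57% of all tested genes. The median log2 fold change was 0.0, beside 0.002 over all tested genes, and 43 of the 50 lay within 0.5 of 0. In 9 genes, 18.0% of the 50, the unadjusted p was under 0.05, beside 18.1% of all tested genes. With 1.02% and 1.57% of all tested genes called, the lack of a call in a single short list says little about that list.

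Of the proteins that carry EPS8 signals to Rac (*Abi1*, *Abi2*, *Sos1*, *Sos2*, *Grb2*, *Pik3r1* and *Rac1*), all 7 genes were tested and none was called by limma-trend, with 0 at an unadjusted p under 0.05. Their log2 fold changes ran from -0.14 to 0.12. *Rac1*, the GTPase itself, had 360, 359 and 374 in Sirt6mKO against 352, 422 and 303 in the controls. *Pik3r1*, the regulatory subunit of PI3-kinase, had 2011, 1956 and 1561 against 1903, 1656 and 1513. Both overlapped between the groups. In the list of direct binding and trafficking partners, 5 of 6 genes were tested and limma-trend called none, with 0 at an unadjusted p under 0.05. *Rab5c* and *Rab5b*, GTPases of early endosomes that the EPS8 partner RN-tre acts on, differed by 0.23 and -0.05 on the log2 scale. *Baiap2* differed by 0.29, and *Baiap2l1* was at a signal of 4 or less in every library.

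Of 14 EGF receptor and ligand genes, 5 were tested and limma-trend called none, with 0 at an unadjusted p under 0.05. *Egfr*, the kinase that phosphorylates EPS8, was abundant in both groups, at 1745, 2024 and 1982 in Sirt6mKO against 1923, 1977 and 1633 in the controls. *Erbb2*, its co-receptor, had 82, 75 and 65 against 77, 93 and 77. Neither gene separated the groups.

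Genes of stereocilia and microvilli, where EPS8 proteins sit at the tips of actin bundles, held 1 of the 2 calls. Of 14 listed, 7 were tested and limma-trend called 1 lower, beside 1.02% of all tested genes. An unadjusted p under 0.05 was found for 3 of the 7, *Espn*, *Gpsm2* and *Fscn1*, beside 18.1% of all tested genes. All 3 were lower in Sirt6mKO, whereas the other 4 of the 7 had a log2 fold change above 0. The median of the 7 was 0.07. *Gpsm2*, chosen here after its values were seen, had 17, 22 and 27 in Sirt6mKO against 37, 34 and 38 in the controls (log2 fold change -0.72, limma adjusted p = 0.14). *Espn* encodes espin, an actin-bundling protein of these structures, and had 3, 1 and 4 in Sirt6mKO against 17, 12 and 9 in the controls. Its groups did not overlap (log2 fold change -1.96, standard error 0.49, limma adjusted p = 0.042). The call was lost when any 1 of the 6 libraries was left out, with adjusted p between 0.052 and 0.16, and with the filter removed (adjusted p = 0.082). *Gnai3*, a G protein subunit that positions EPS8 in hair cells, had 314, 286 and 325 against 279, 340 and 267, and *Fscn1*, the bundling protein fascin, had 141, 207 and 195 against 226, 311 and 204. Both overlapped between the groups.

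Other proteins that cap barbed ends, as EPS8 does, gave 9 tested genes of 10 and no call by limma-trend. Of the 9, 2 had an unadjusted p under 0.05, beside 18.1% of all tested genes. *Gsn* (gelsolin), the most abundant of the 9 per kb, had 3353, 3375 and 3166 in Sirt6mKO and 3170, 2785 and 2312 in control libraries (log2 fold change 0.27, limma adjusted p = 0.29). *Add3* (adducin) had 0.09. In the WAVE complex, which links Rac to new actin branches, 6 of 9 genes were tested, none was called (0 at an unadjusted p under 0.05), and the log2 fold changes ran from -0.18 to 0.13. *Nckap1* and *Wasf2*, its most abundant members per kb, had 0.03 and 0.13.

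Of 12 regulators of Rac and Cdc42, 11 were tested and limma-trend called 1 higher, beside 1.57% of all tested genes. An unadjusted p under 0.05 was found for 4 of the 11, beside 18.1% of all tested genes. *Tiam1* encodes an exchange factor that activates Rac, and had 27, 40 and 37 in Sirt6mKO against 9, 16 and 9 in the controls. Every Sirt6mKO library was above every control (log2 fold change 1.56, standard error 0.31, limma adjusted p = 0.014), beside 11.1% of tested genes. Without Sirt6mKO replicate 2 the adjusted p was 0.098, and without Sirt6mKO replicate 3 it was 0.059. *Cdc42* and *Rhoa*, the GTPases with the highest levels per kb in this list, had log2 fold changes of -0.18 and -0.05. *Vav3*, another exchange factor, chosen here after its values were seen, had 217, 239 and 196 against 266, 366 and 419. Its log2 fold change of -0.67 (limma adjusted p = 0.034) was short of 2-fold.

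**Figure D3:**
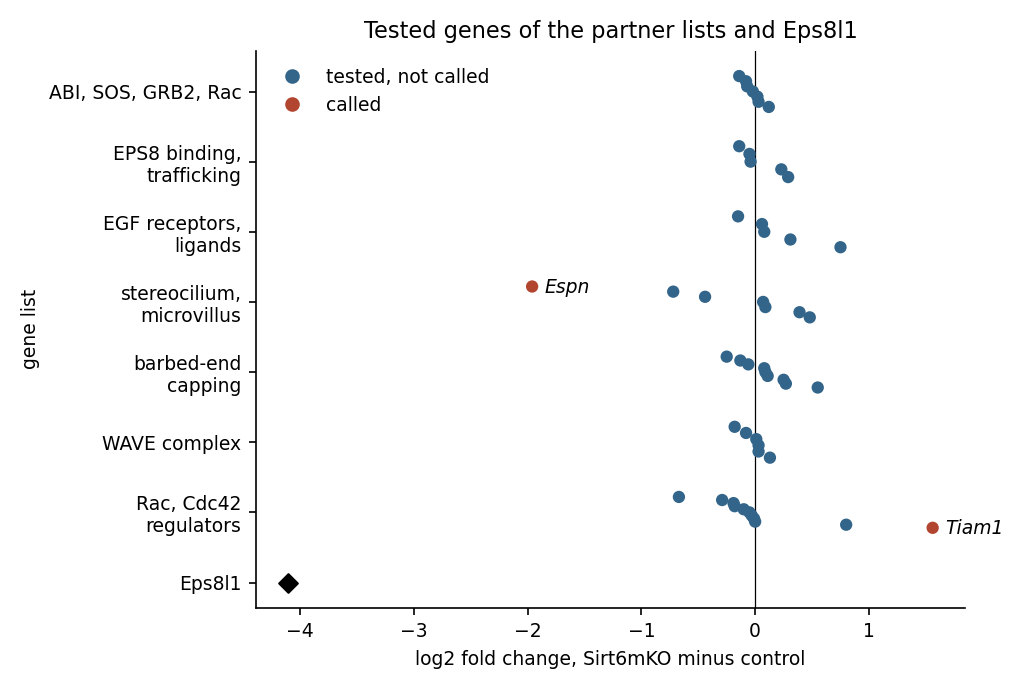
Log2 fold change (Sirt6mKO minus control) of the 50 tested genes of the 7 partner lists, 1 row per list and 1 point per gene, with called genes in red, and of *Eps8l1* (diamond). *Espn* at -1.96 and *Tiam1* at 1.56 are the 2 called genes, and most others lie within 0.5 of 0, far from the -4.10 of *Eps8l1*.

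Among all tested genes, *Aff2*, which encodes a nuclear protein of the AF4/FMR2 family, came next after *Eps8l1* in the order of fold changes. It had 5, 5 and 5 in Sirt6mKO against 80, 90 and 70 in the controls, which is a difference of -3.75 on the log2 scale (standard error 0.26). Whether the 2 genes differ in this was not tested. *Eps8l1* was also lowest in most alternative fits, but 2 genes lay below it in limma voom on the recovered reads. *Olfr1507* was the lowest there and without Sirt6mKO replicate 2, and *Pcdh15* was the lowest without control replicate 1.

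**Figure D4:**
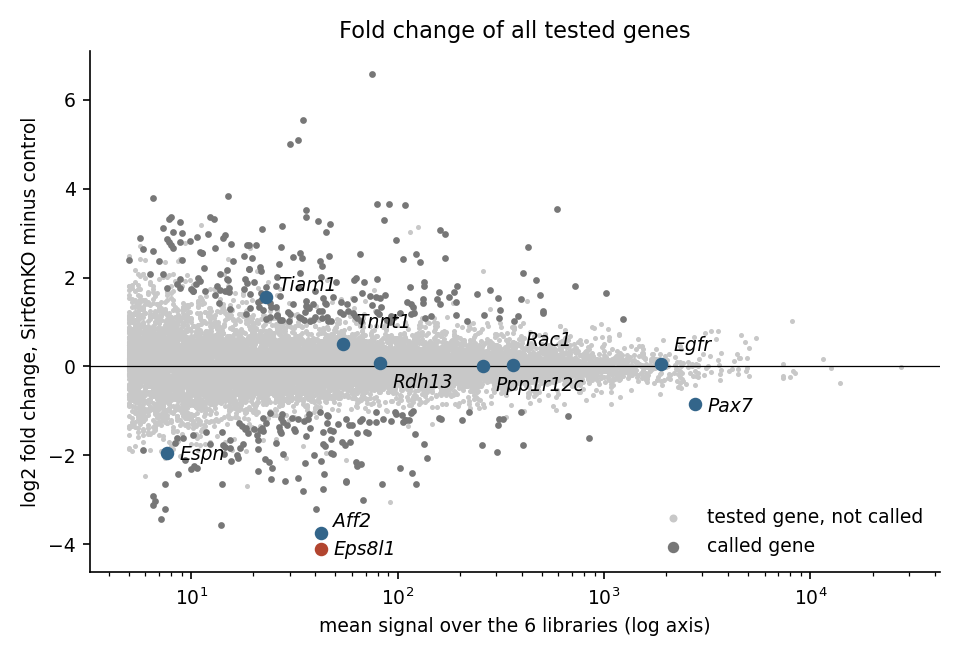
Log2 fold change (Sirt6mKO minus control) against the mean signal over the 6 libraries (log axis) for the 14227 tested genes, called genes in dark grey, with *Eps8l1* in red and other named genes in blue. *Eps8l1* at -4.10 is the lowest point, next to *Aff2* at -3.75, while its neighbours *Rdh13* and *Ppp1r12c* lie at 0.08 and 0.00.

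The 5 tested genes whose centred log2(signal + 1) values over the 6 libraries were closest to those of *Eps8l1* were *Aff2*, *Gm11942*, *Gm43305*, *Pcdh17* and *Gm47015*. Their root mean square difference from *Eps8l1* was 0.45, 0.45, 0.71, 0.75 and 0.86 on the log2 scale, against a median of 2.1 over the other tested genes. *Gm11942*, a processed pseudogene whose reads may be shared with its parent gene, had 1, 1 and 2 in Sirt6mKO against 26, 34 and 20 in the controls. *Pcdh17*, a protocadherin gene, had 7, 7 and 6 against 54, 108 and 59. *Gm43305*, a processed transcript, had 0, 1 and 1 against 18, 16 and 9, and the lincRNA gene *Gm47015* had 1, 1 and 2 against 10, 18 and 13. All 5 were chosen for this likeness, so that their separation is no further result. They share the 6 libraries and their depth with *Eps8l1*.

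**Figure D5:**
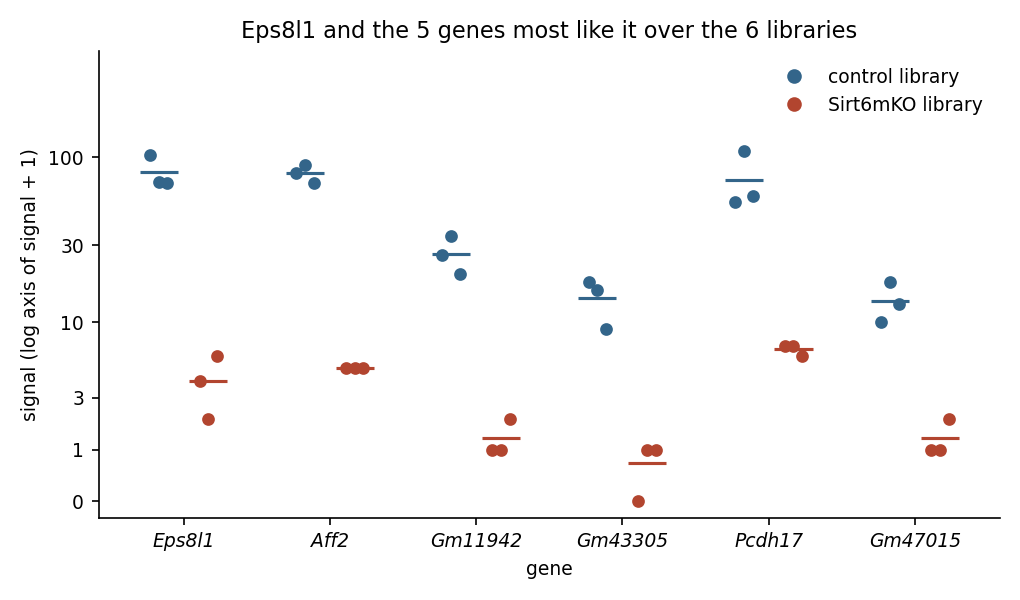
Signal in each library (log axis of signal + 1) of *Eps8l1* and the 5 genes most like it, with 3 control (blue) and 3 Sirt6mKO libraries (red) per gene and a bar at each group's mean. All 6 genes separate the groups, with Sirt6mKO values of 7 or less, and *Eps8l1*, *Aff2* and *Pcdh17* have control values of 54 to 108.

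Markers of the labelled cell type were present in every library. The summed signal of 12 quiescent MuSC markers was 12985 to 13915 in Sirt6mKO and 14748 to 16573 in the controls, without overlap. *Pax7*, which drives Cre, is part of this sum, with 1841, 2307 and 1810 in Sirt6mKO against 4066, 3449 and 3150 in the controls. No sum without *Pax7* was made, so the separation is not read as a fall of the markers as a set. The median log2 fold change of the 12 markers was -0.15. Limma-trend called 1 of them lower (*Chrdl2*) and none higher, beside 1.02% and 1.57% of all tested genes. An unadjusted p under 0.05 was found for 6 of the 12, beside 18.1% of all tested genes. Of the 12, 7 had a log2 fold change below 0 and 5 above 0. *Pax7* (-0.84, limma adjusted p = 0.0041) and *Cd34* (0.60, limma adjusted p = 0.031) were short of 2-fold. EPS8L1 is known from epithelia, and 5 of 10 epithelial markers were in the table. Their summed signal was 7, 13 and 3 in Sirt6mKO against 2, 4 and 7 in the controls, and *Epcam* was at 0 in 5 of 6 libraries.

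Markers of other cells moved with the groups in part. The summed signal of 10 myofiber markers was 1973, 2163 and 712 in Sirt6mKO against 595, 708 and 667 in the controls. Myofiber signal was thus raised in Sirt6mKO replicates 1 and 2 and close to the controls in replicate 3. The median log2 fold change of the 10 tested genes was 1.62. Limma-trend called 2 of the 10 higher, beside 1.57% of all tested genes. An unadjusted p under 0.05 was found for 8, beside 18.1% of all tested genes. Of 8 fibroblast markers 7 were tested, all 7 had a log2 fold change above 0 (median 1.39), 6 had an unadjusted p under 0.05, and 3 were called higher, beside 1.57% of all tested genes. *Col1a2*, a collagen gene, had the largest difference, with 782, 1299 and 1162 in Sirt6mKO against 173, 63 and 65 in the controls (log2 fold change 3.55, limma adjusted p = 8.5e-05), and *Pdgfra* and *Col1a1* were the other two called. The summed signal, 9464 to 11562 against 6555 to 10218, was mostly that of *Col3a1*, which had a log2 fold change of 0.06. Without Sirt6mKO replicate 1, 2 or 3 in turn, the log2 fold change of *Eps8l1*, which was picked on these values, was -4.14, -3.78 and -4.39. Leaving out 1 library cannot show the part of other cells, since *Col1a2* was higher in every Sirt6mKO library. Summed endothelial markers ran from 373 to 450 against 466 to 572, nearly all of it from *Tek* (log2 fold change -0.35), while *Pecam1*, the other one tested, had 1.05 and the rest stayed at 7 or less. The sums of immune markers ran from 36 to 78 against 36 to 65 and those of Schwann cell markers from 51 to 108 against 82 to 119, with no call by limma-trend among the 6 of these genes that were tested. The single marker genes named here were picked after their values were seen. The part of other cells in the values of *Eps8l1*, *Espn* and *Tiam1* was not tested.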

How the data were processed

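RNA of FACS-isolated MuSCs was sequenced in 6 libraries, 3 labelled Sirt6mKO and 3 control, which were grouped by their labels. Libraries were made with a SMARTer stranded kit after RiboGone depletion and read as single reads of 75 bases per the labels, whereas the methods name another depletion and kit. The authors aligned reads to mm10 (GRCm38) with STAR. Reads were assigned to genes by featureCounts, and those on several genes or regions were dropped. The labels' processing notes give Trimmomatic 0.39, STAR 2.7.10a and featureCounts 2.0.2. Whether strand was used in counting is not given in the sources used here.

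The deposited values are a signal, whole numbers without a named unit. The authors appear to have divided the reads of each gene by 1 factor per library and rounded them, because control replicates 1 and 3 take no value at 11 and 27 of the whole numbers from 1 to 60. Factors were estimated from the values of each library, without the groups, and reads were obtained by multiplying back. The share of values that come out whole cannot be used as a check, since in libraries with a factor above 1 every whole number can be reached. Leaving out reads on several genes can lower genes with near copies, and the table holds no mitochondrial genes.

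Genes were tested with limma-trend (limma 3.58.1, R 4.3.3) on log2(signal + 1), at a mean signal of at least 5, without further scaling, and with Benjamini-Hochberg adjustment over all 14227 tested genes. The procedure was tested on simulated data. Positions came from GENCODE M21 (GRCm38), in which 99.7% of identifiers were found, and coding sequences were aligned with mafft. Promoters came from RefSeq, which matched 3 of the 4 members, *Eps8l1*, *Eps8l2* and *Eps8l3*. Tables were handled with pandas 2.3.3 and plotted with matplotlib 3.10.9.

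The members and the gene lists were chosen with earlier results of these data known. The rule for named genes took the 4 members, the gene next after *Eps8l1*, neighbours within 100 kb and overlapping genes with a signal, in each partner list the called genes and the 2 with the highest mean signal per kb, the 5 genes most like *Eps8l1*, *Sirt6* and *Pax7*. The 16 alternatives covered pseudocount, filter, scaling, limma voom on the recovered reads, a replicate block and leaving out each library.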

Additional observations from a re-analysis of the deposited data

How the results depend on the processing

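The log2 fold change of *Eps8l1* lay between -4.39 and -3.26 over the alternatives, and between -4.39 and -3.78 with 1 library left out. It moved by more than the spread between replicates at a pseudocount of 5, to -3.26, and with a mean signal of at least 50 the gene was not tested. The paralogs could be tested in 2 alternatives only, all 3 with no filter and 2 (*Eps8* and *Eps8l3*) at a mean of at least 1, and limma called none there. Limma called none of the 10 neighbours tested with no filter, of the 8 at a mean of at least 1 or of the 3 in each other alternative. At a mean of at least 50, 52 genes were called lower and 76 higher, with fewer genes tested, and 0 partner genes. Leaving out 1 library gave 84 to 152 lower and 97 to 291 higher genes and 0 to 2 partner genes. Without Sirt6mKO replicate 1 the lower and higher genes numbered 84 and 101, without Sirt6mKO replicate 2 they numbered 96 and 97, and without control replicate 2 there were 90 lower genes. The cause was not tested. The partner calls came to 1 with a pseudocount of 0.5 and to 1 with no filter, where *Espn* had an adjusted p of 0.050 and 0.082. *Ppp1r12c*, at 0.00, changed sign to -0.01 with upper quartile scaling, with scaling by library total and in limma voom, to -0.07 without Sirt6mKO replicate 1, to -0.01 without control replicate 2 and to -0.02 without control replicate 3 (-0.07 to 0.06 with 1 library left out), never with an adjusted p under 0.86. *Sirt6* was at 0.09 without Sirt6mKO replicate 3 and at -0.21 to 0.09 with 1 library left out.

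The replicate numbers were not used as pairs. The deviations of libraries with the same number correlated at 0.023, 0.066 and 0.188, and not every library correlated best with its own number. With the replicate block, 167 genes were called lower and 268 higher against 145 and 223 without it, the log2 fold change of *Eps8l1* stayed at -4.10, and the calls of *Espn* and *Tiam1* held. Limma voom gave 160 lower and 213 higher genes. Depth limits the paralogs most, since few of their values exceed 3 reads.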
